A study of Mus musculus with 7 samples.

Results

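Glutathione S-transferases (GST), UDP-glucuronosyltransferases (UGT) and sulfotransferases (SULT) attach a small polar group to drugs, hormones, bile pigments and reactive lipids. Their transcripts were followed through the cell clusters of the mouse kidney. All genes of the deposited matrix whose symbol starts with Gsta, Gstm, Gstp, Gstt, Gstk, Gsto, Gstz, Mgst, Ugt1, Ugt2, Ugt3 or Sult were taken, which gave 46 of 16272 genes. They were 21 soluble GST genes (Gst), 3 microsomal GST genes (Mgst), 8 Ugt1, 5 Ugt2, 2 Ugt3 and 7 Sult genes. GST enzymes join glutathione to electrophiles, and the conjugates leave the cell through export pumps and are trimmed at the brush border of the proximal tubule. UGT enzymes of the endoplasmic reticulum add a sugar, usually glucuronic acid, and SULT enzymes of the cytosol add sulfate from the donor PAPS. The proximal tubule is known as the main site of such drug metabolism and of organic anion secretion in the kidney.

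Dissociated whole kidneys of 7 healthy adult C57BL/6 mice, 4 to 8 weeks old, were profiled by droplet sequencing of transcript 3′ ends, with a unique molecular identifier (UMI) on every captured molecule. The labels list 4 wild-type mice and 3 mice of the lines Cdh16CremTmG, SclCremTmG and Nphs2CremTmG, in which Cre under a promoter of tubule, blood-forming and endothelial, or podocyte genes switches a membrane reporter, with 1 mouse for each line. The labels do not state the sex. The matrix held 43745 cells (57979 are stated) with the authors' cluster numbers 1 to 16, and the numbers that end the barcodes gave 7 libraries that no source used here links to the labelled mice, so they entered as 7 kidneys with no groups among them.

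The libraries held 1383 to 14136 cells and 4217169 to 49997616 UMIs, with 707 to 15000.0 UMIs in a cell, and 974 barcode sequences occurred in more than 1 library (1962 cells). Library 7 had 2736 CPM of Xist and 0 UMIs of the Y-linked genes Ddx3y, Uty, Eif2s3y and Kdm5d, whereas libraries 1 to 6 had at most 0.673 CPM of Xist and 53.5 to 81.4 CPM of Ddx3y. CPM are UMIs of a gene per 1000000 UMIs of the same sum of cells, and because each molecule is counted at its 3′ end they carry no length term. Haemoglobin transcripts (Hbb-bs) were highest in library 3, at 1339 CPM, followed by libraries 4 and 2. Libraries 3 and 4 also stood apart together in several members.

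Clusters are called by marker genes. All 9 proximal tubule markers were highest in cluster 3, all 5 loop of Henle markers in cluster 4, all 3 distal convoluted tubule markers in cluster 5 and all 7 principal cell markers in cluster 6. Cluster 7 held the highest level of 4 of 6 intercalated cell markers and the unnamed cluster 8 of the other 2, all 7 endothelial markers were highest in cluster 1 and all 5 podocyte markers in cluster 2. The monocyte (10), macrophage (11), neutrophil (12), B (13), T (14) and natural killer (15) lists were each highest in their own cluster, in every measured marker. The leading genes of cluster 3 by fold also included Hbb-bs and Hba-a1, which encode haemoglobin chains. Cluster 9 shared proximal genes with cycling markers and cluster 16 was led by cycling and histone genes, and both stay unnamed. Cluster 1 was also the top cluster for 5 of 6 pericyte or smooth muscle markers, 3 of 4 measured fibroblast markers and 5 of 5 urothelial markers, so it mixes cell types. The authors set these clusters on the same counts, so p-values between clusters are not independent evidence that the clusters differ. Such a p-value weighs a fold against the spread of library sums left once differences shared by all clusters of a library are removed.

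Regions around the RefSeq starts of the genes are shown for 5 members that the results turn on. Ugt2b37 (chr5:87240493-87254804) and Ugt2b38 (chr5:87409942-87424203) lie in the same gene group on the minus strand of chromosome 5, Ugt3a1 (chr15:9276888-9315032) lies beside Ugt3a2 (chr15:9335550-9370955) on chromosome 15, and Sult1d1 (chr5:87554645-87569027) is on chromosome 5. These 4 were high in proximal cells. Mgst1 (chr6:138140316-138156755) was low there and high in principal-like, loop-like, monocyte-like and neutrophil-like cells. Gene positions are from GENCODE vM21 on GRCm38. For each gene 1 window is shown, from 250 bases before to 50 bases after its start in RefSeq, build GRCm38.p6. The RefSeq start can differ from the GENCODE start. The window of Ugt3a1 lies wholly, and that of Mgst1 mostly, inside the gene as GENCODE places it. Windows are written 5′ to 3′, and capitals mark motif matches on either strand.
Ugt2b37 (chr5:87254739-87255038, minus strand): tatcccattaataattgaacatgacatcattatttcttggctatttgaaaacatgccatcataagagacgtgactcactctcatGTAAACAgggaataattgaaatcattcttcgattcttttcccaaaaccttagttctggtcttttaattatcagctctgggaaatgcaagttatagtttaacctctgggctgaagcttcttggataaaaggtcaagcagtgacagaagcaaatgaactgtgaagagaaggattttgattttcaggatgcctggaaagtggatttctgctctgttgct
Ugt2b38 (chr5:87424154-87424453, minus strand): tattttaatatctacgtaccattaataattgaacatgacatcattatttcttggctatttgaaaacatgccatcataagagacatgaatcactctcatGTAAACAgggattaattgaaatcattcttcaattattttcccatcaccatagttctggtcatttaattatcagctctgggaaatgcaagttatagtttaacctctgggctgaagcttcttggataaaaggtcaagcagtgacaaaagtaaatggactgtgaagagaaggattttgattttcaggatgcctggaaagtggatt
Ugt3a1 (chr15:9279579-9279878, plus strand): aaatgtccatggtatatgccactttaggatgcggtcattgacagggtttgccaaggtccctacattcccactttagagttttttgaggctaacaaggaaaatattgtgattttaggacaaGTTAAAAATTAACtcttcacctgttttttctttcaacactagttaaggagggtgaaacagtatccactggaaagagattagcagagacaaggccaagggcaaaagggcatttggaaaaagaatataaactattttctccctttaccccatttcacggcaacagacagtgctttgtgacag
Sult1d1 (chr5:87568957-87569256, minus strand): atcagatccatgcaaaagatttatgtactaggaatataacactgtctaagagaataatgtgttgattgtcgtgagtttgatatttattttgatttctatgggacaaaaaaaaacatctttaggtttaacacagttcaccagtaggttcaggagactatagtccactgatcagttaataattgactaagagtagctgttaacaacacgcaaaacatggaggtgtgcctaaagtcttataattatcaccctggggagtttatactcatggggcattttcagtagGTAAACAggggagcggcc
Mgst1 (chr6:138140277-138140576, plus strand): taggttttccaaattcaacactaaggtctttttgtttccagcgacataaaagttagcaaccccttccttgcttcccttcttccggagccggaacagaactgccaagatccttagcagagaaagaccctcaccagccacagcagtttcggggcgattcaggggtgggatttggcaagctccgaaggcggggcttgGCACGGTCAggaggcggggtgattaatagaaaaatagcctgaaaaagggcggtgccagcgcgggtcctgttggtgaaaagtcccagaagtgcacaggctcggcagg

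The capitals are TGTTTAC (a forkhead motif) in Ugt2b37, Ugt2b38 and Sult1d1, GTTAAT and TTAAC with 2 bases between them (the HNF1 palindrome) in Ugt3a1 and TGACNNNGC (the core of the antioxidant response element) in Mgst1. These motifs and CAAAGTCCA (an HNF4 motif) were searched on both strands and overlapped no other match in the windows shown. A match on the other strand appears as the reverse complement, such as GTAAACA for TGTTTAC. The HNF1 palindrome occurred in 13 of 32851 RefSeq promoters of the same length (0.0396%), and the Ugt3a1 promoter was the member among them. The forkhead letters occurred in 3.65% of all promoters and in 4 of 54 promoters of 43 members, where the 4th was Ugt1a2. The antioxidant core occurred in 12.4% of all promoters and in 4 of the 54 (Gsta3, Gstm5, Gstm7 and Mgst1), and the HNF4 letters in 0.475% and in 1 (Sult1b1). These matches describe letters in a window and say nothing on whether a factor binds. The windows of Ugt2b37 and Ugt2b38 share a run of 82 identical bases, and 61.9% of the 12-base words of the Ugt2b37 window occur in that of Ugt2b38, against 0% in that of Sult1d1. No promoter was matched for 3 members.

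Summed over the 46 members, the level was 3185 ± 373 CPM in proximal-like cells (SD, n = 7 libraries), with 2689.7, 3079.7 and 3892 CPM in the lowest, median and highest library. Cluster 9 followed at 2811 ± 177 CPM (n = 4), principal-like cells at 2397 ± 567 CPM (n = 6) and the endothelial-like cluster 1 at 2385 ± 1112 CPM (n = 7). The T-like, natural killer-like and B-like clusters lay at 680.03 ± 279.6 CPM, 559.8 ± 321 CPM and 549.6 ± 308 CPM (n = 7 each). The makeup differed between clusters. Ugt2 and Ugt3 genes summed to 517 and 436 CPM in cluster 3, against 34.03 to 76.7 and 29.6 to 54.4 CPM in clusters 4 to 7. Soluble GST genes summed to 1374 ± 229 CPM in cluster 3, 1693 ± 459 CPM in cluster 6 and 1704 ± 949.9 CPM in cluster 1. Microsomal GST genes were higher in the loop-like cluster 4 (603 ± 79.9 CPM), principal-like cluster 6 (551 ± 164 CPM) and distal-like cluster 5 (517 ± 106 CPM) than in cluster 3 (154 ± 45.6 CPM).

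Of the 46 members, 21 reached a mean of 50 CPM in at least 1 cluster with 3 or more library sums. Their highest means fell in cluster 3 for 6 members, in cluster 6 for 4, in cluster 9 for 3, in cluster 1 for 2 and in clusters 2, 4, 5, 8, 10 and 11 for 1 each. Of the 21, only Gstm1 (cluster 1), Gsta4 (podocyte-like cluster 2) and Gstt1 (principal-like cells) did not overlap the cluster with the next highest mean. For these, every library of the leading cluster lay above every library of that next cluster. How often this holds over all genes was not counted. Other clusters were left aside, and Gsta4 had 187 CPM in cluster 3 of library 7, against 141 CPM in the lowest podocyte-like library.

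**Figure D1:**
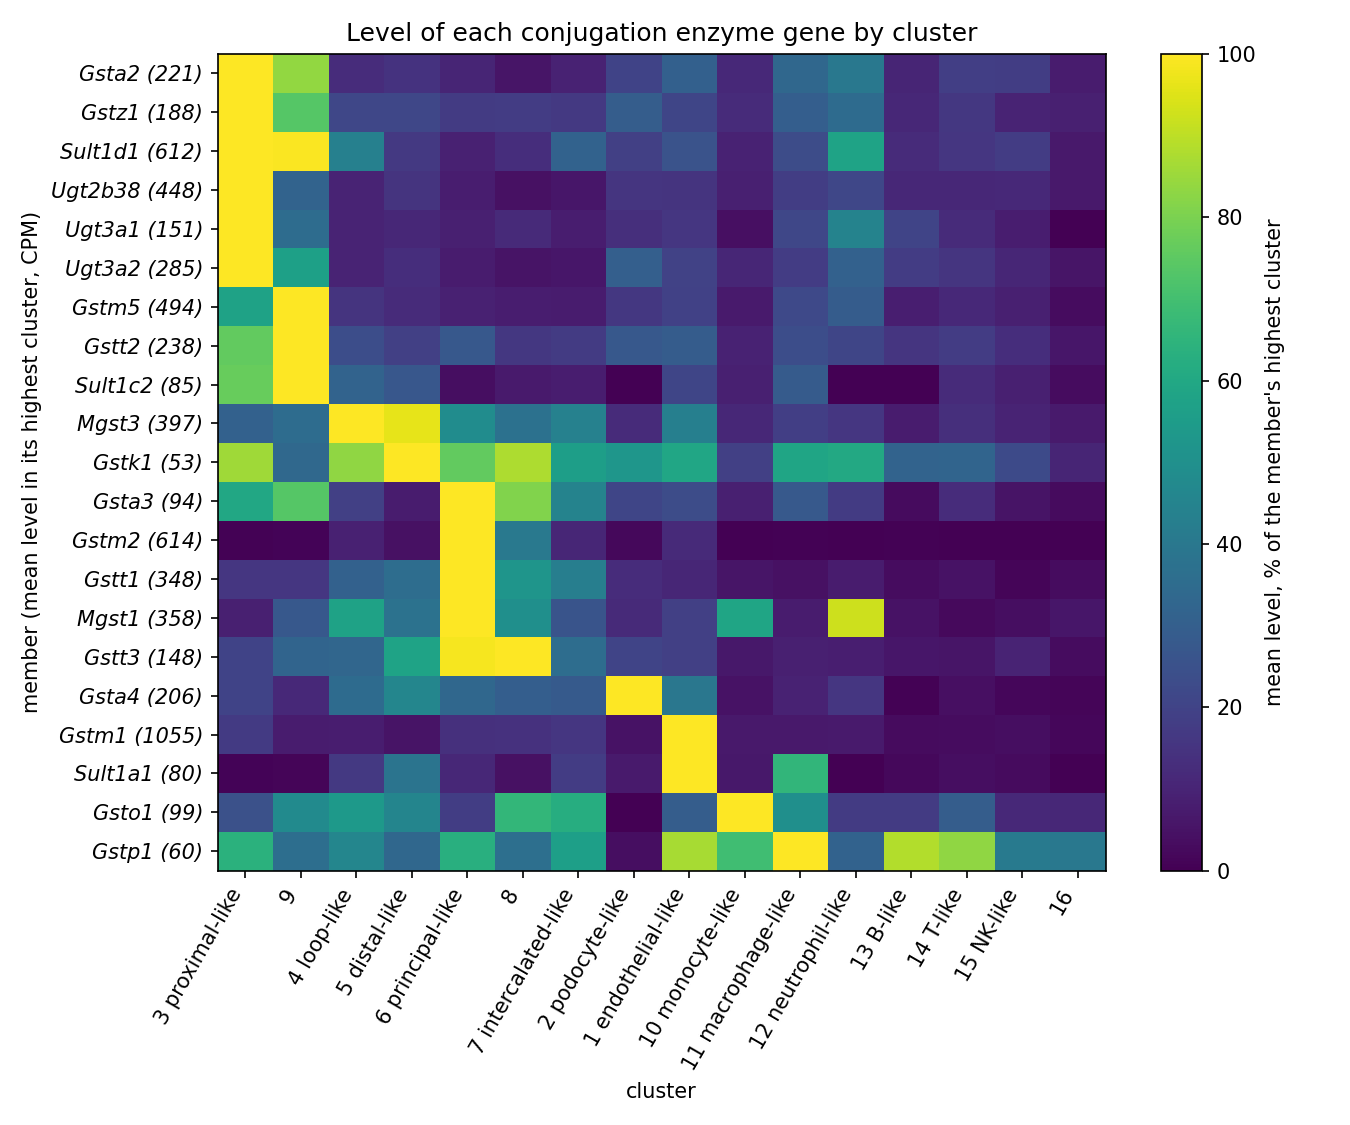
Mean level of the 21 members that reached 50 CPM, by cluster (columns), as a percentage of the member's highest cluster (colour). The number after each symbol is the mean in that highest cluster in CPM over 3 to 7 library sums, such as 1055 for Gstm1 in cluster 1. The yellow cells fall into a proximal block (clusters 3 and 9), a distal and collecting duct block (clusters 4, 5, 6 and 8) and clusters outside the tubule.

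The comparison of proximal-like cells with the other tubule and collecting duct cells asked which members mark the proximal tubule. Of the 46 members, 23 passed the filter on low counts over all 16 clusters, and 13 of these were higher and 8 lower in cluster 3 than in the mean of clusters 4 to 7. Over all 7952 genes tested, 29.1% were higher and 31.4% lower (60.4% in either direction), with a median log2 fold of -0.04, against 0.97 for the 23 members. These numbers describe the members that passed the filter and not all 46. The all-gene split depended on the scaling. It was 2311 higher and 2494 lower with TMM and 1645 higher and 3607 lower with DESeq2's size factors, which moved the median to -0.30, while the members stayed at 13 higher and 8 lower.

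The 4 largest proximal excesses were UGT genes. Ugt3a2, whose human counterpart transfers glucose and xylose, had 158, 290.4 and 391 CPM in the lowest, median and highest library of cluster 3 and means of 17.8 to 37.5 CPM in clusters 4 to 7. All libraries of cluster 3 were above their own clusters 4 to 7, and the difference passed the test (log2 fold 3.88 ± 0.17 (SE), edgeR adjusted p = 1.52e-41). Ugt2b38 had 21.5, 341 and 1161 CPM in cluster 3 and means of 26.5 to 66.8 CPM in clusters 4 to 7. The Ugt2b enzymes glucuronidate steroids and many drugs, and Ugt2b38 was higher in cluster 3 in 7 of 7 libraries (log2 fold 3.54 ± 0.17 (SE), edgeR adjusted p = 4.14e-38) although its level spread widely between libraries. Ugt3a1, whose human counterpart uses N-acetylglucosamine, had 45.2, 137 and 285 CPM in cluster 3, means of 11.8 to 16.9 CPM in clusters 4 to 7 and a log2 fold of 3.49 ± 0.18. Ugt2b37 was lower in level, with 0.282, 53.3 and 90.7 CPM in cluster 3, and had a log2 fold of 3.29 ± 0.20 (edgeR adjusted p of at most 1.16e-28 for these 2).

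Among sulfotransferases, Sult1d1 and Sult1c2 were proximal. Sult1d1, which sulfates dopamine and other catecholamines in the mouse, had 543, 584 and 745 CPM in cluster 3 and was one of the steadiest members. Outside it, Sult1d1 averaged 267 ± 63.9 CPM in loop-like cells and 192 ± 38.5 CPM in intercalated-like cells but 55.5 ± 19.7 CPM in principal-like cells, with a log2 fold of cluster 3 over clusters 4 to 7 of 2.42 ± 0.19. Sult1c2 had 35.4, 47.2 and 124 CPM in cluster 3 and a log2 fold of 2.40 ± 0.17. Sult1a1, the phenol sulfotransferase, ran the other way, with at most 1.22 CPM in any library of cluster 3 against means of 9.06 to 30.7 CPM in clusters 4 to 7 (log2 fold -3.88 ± 0.25, lower in 7 of 7 libraries). The edgeR adjusted p was at most 3.00e-22 for these 3.

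GST genes divided between proximal and distal cells. Gsta2, an alpha class enzyme, had 49.01, 228 and 487 CPM in cluster 3 and a log2 fold of 3.18 ± 0.17. Gstz1, the maleylacetoacetate isomerase of tyrosine breakdown, had 159, 201 and 224 CPM and a log2 fold of 2.61 ± 0.12. The mu class gene Gstm5 had 176, 232 and 552 CPM and 2.55 ± 0.15, and the theta class gene Gstt2 91.7, 205 and 228 CPM and 2.04 ± 0.14. These 4 were higher in cluster 3 in all 7 libraries. Smaller excesses passed the test for Gsta3 (1.26 ± 0.16, higher in 5 of 7 libraries), Gstm1 (0.97 ± 0.18) and Gstp1 of the pi class (0.56 ± 0.12), with an edgeR adjusted p of at most 2.37e-05 for the 7 genes. The Gsta3 excess is over the mean of clusters 4 to 7 on the log2 scale, since principal-like cells alone averaged 93.8 ± 53.3 CPM (SD, n = 6), against 56.4 ± 17.5 CPM in cluster 3 (n = 7).

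The members lower in proximal-like cells were led by Gstm2, another mu class gene in the same group on chromosome 3 as Gstm5 and Gstm1. Gstm2 had 0.303, 2.79 and 4.73 CPM in the lowest, median and highest library of cluster 3, and means of 27.3 to 614 CPM in clusters 4 to 7. Gstm2 was lower in cluster 3 in 7 of 7 libraries (log2 fold -4.54 ± 0.21 (SE), edgeR adjusted p = 5.76e-37). The microsomal enzymes Mgst1, which reduces lipid peroxides, and Mgst3 had log2 folds of -2.26 ± 0.21 and -0.97 ± 0.15, the theta class genes Gstt1 and Gstt3 -1.36 ± 0.13 and -1.16 ± 0.14, and the dehydroascorbate reductase Gsto1 -0.70 ± 0.18. Each of these 5 was lower in cluster 3 than in the mean of clusters 4 to 7 in all 7 libraries. The median of Gsto1 in principal-like cells alone, given below, was nevertheless under its median in cluster 3 (30.4 CPM). Gsta4, known for conjugating the lipid peroxidation product 4-hydroxynonenal, was lower in 6 of 7 (-1.27 ± 0.28), and library 7 was the exception, with 187 CPM in cluster 3. The edgeR adjusted p of these 6 was at most 4.94e-04. Gstk1, the mitochondrial and peroxisomal kappa class gene, did not pass (log2 fold 0.22 ± 0.13 (SE), edgeR adjusted p = 0.149), and Mgst2 had 0 UMIs in clusters 3 to 7.

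Cells of cluster 3 were then split along the proximal tubule. The markers were Slc5a2, Slc5a12, Slc7a7 and Slc4a4 for early and Slc7a13, Slc22a7, Slc22a13 and Slc5a1 for late segments. All 4 early markers were highest in cluster 3. Of the 4 late markers, 2 were highest in cluster 3, 1 in cluster 4 and 1 in cluster 2. Summed, the late markers had 254 CPM in cluster 3, 185 CPM in cluster 4 and 162 CPM in cluster 2. The late list was thus not particular to cluster 3. A cell counted as late with at least 1 UMI of the late and 0 of the early markers, and early for the reverse, which left 1463 late cells (43 to 799 per library) and 16147 early cells. Their medians were 1829 and 2345 UMIs. Left out of the comparison were 5297 cells with UMIs of both marker sets and 3575 with neither. Of the 46 members, 19 passed the filter here, and 8 were higher and 1 lower in late cells. Without library 2 the numbers were 5 and 2, and without library 1, 3, 4 or 7 the number lower was also 2. Over all 5214 genes tested, 10.2% were higher and 8.55% lower.

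The largest late excess was that of Ugt2b37, with 0, 86.00 and 159 CPM in the lowest, median and highest library of late cells and 0.363, 22.3 and 27.5 CPM in early cells. It was higher in late cells in 6 of 7 libraries, with library 7 the exception at 0 CPM in late and 0.363 CPM in early cells, and the difference passed the test (log2 fold 2.22 ± 0.17 (SE), edgeR adjusted p = 8.38e-14). Ugt3a1 had 109, 250.4 and 278 CPM in late and 34.9, 82.4 and 159.6 CPM in early cells (log2 fold 1.26 ± 0.12 (SE), edgeR adjusted p = 3.89e-11). Gstm1 had 192, 298 and 405 CPM in late and 115, 133 and 177 CPM in early cells (log2 fold 1.08 ± 0.11 (SE), edgeR adjusted p = 3.19e-10). For Gstm1 the lowest late library was above the highest early one, whereas the ranges overlapped for both UGT genes. Gsta2 went the other way, with 22.6, 106 and 477 CPM in late and 163, 283 and 460.4 CPM in early cells (log2 fold -1.21 ± 0.17 (SE), edgeR adjusted p = 2.98e-07), lower in late cells in 6 of 7 libraries. Its exception was again library 7, with 477 CPM in late and 460.4 CPM in early cells.

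Smaller late excesses were called for Gstp1 (0.63 ± 0.17), Ugt3a2 (0.52 ± 0.10), Gstz1 (0.50 ± 0.10), Ugt2b38 (0.39 ± 0.12) and Sult1d1 (0.25 ± 0.08), with an edgeR adjusted p of at most 0.0271. Those of Ugt3a2, Gstz1, Gstp1 and Sult1d1 were seen in all 7 libraries, that of Ugt2b38 in 4 of 7. The cells with both marker sets, not tested, had 410 ± 99.3 CPM of Ugt3a2 and 567 ± 503 CPM of Ugt2b38. Late cells had 315 ± 94.8 and 422 ± 364 CPM of these (SD, n = 7). For Gstp1, Gstz1 and Sult1d1 the mean was lower in cells with both marker sets than in late cells. The Gstp1 call was lost without library 2 (edgeR, log2 fold 0.43, adjusted p = 0.127). The Ugt2b38 call was lost without library 2 (edgeR, 0.30, adjusted p = 0.0914), library 4 (edgeR, 0.31, adjusted p = 0.059) or library 6 (edgeR, 0.36, adjusted p = 0.0725). That of Sult1d1 was lost without library 1, 2, 3, 6 or 7 (edgeR adjusted p = 0.0821, 0.0945, 0.0635, 0.0504 and 0.0934), and its log2 fold was 0.07 with every cell thinned to 1000 UMIs. Gsta3, Gstm5, Gstt2 and Mgst1, all measured in the same cells, had log2 folds between -0.08 and 0.15 and did not pass.

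**Figure D2:**
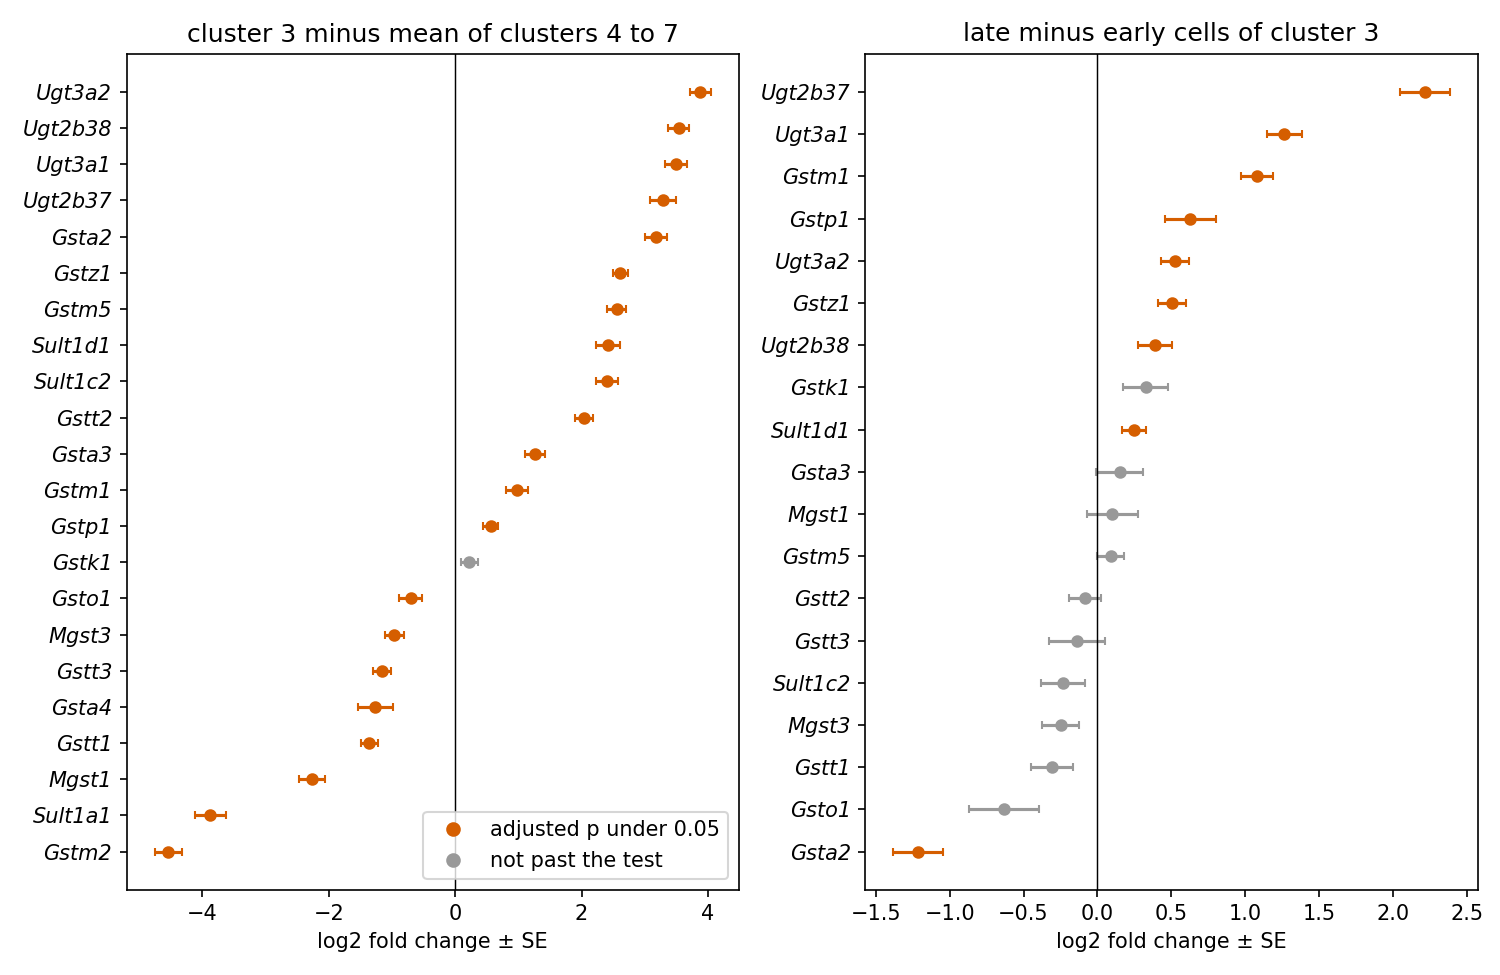
Log2 fold changes ± SE of the members tested, for cluster 3 minus the mean of clusters 4 to 7 (left, 22 members) and late minus early cells of cluster 3 (right, 19 members), from library sums. Orange points passed an adjusted p of 0.05. UGT genes lead both panels, with Ugt3a2 at 3.88 on the left and Ugt2b37 at 2.22 on the right, and Mgst2, with 0 UMIs in these clusters, is not drawn.

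The same members differed in how evenly the 7 libraries carried them. Of the 12 members given in full with a median of at least 50 CPM in cluster 3, the highest library was less than 2 times the lowest for 4 and more than 5 times for 3. The even ones were Sult1d1 (1.37 times), Gstz1 (1.41), Gstt1 (1.5) and Gstm1 (1.65). The uneven ones were Ugt2b38 (53.9), Gsta2 (9.95) and Ugt3a1 (6.31).

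Ugt2b38 had 341, 288, 1161, 846, 104, 373 and 21.5 CPM in cluster 3 of libraries 1 to 7, highest in libraries 3 and 4 and lowest in library 7. Without libraries 3 and 4 its mean was 226 ± 154 CPM (SD, n = 5) in place of 448 ± 409.99 CPM (n = 7). Its neighbour Ugt2b37 had 43.2, 53.3, 59.7, 58.4, 14.5, 90.7 and 0.282 CPM and was also lowest in library 7, where it rested on 3 UMIs, but highest in library 6. Gsta2 ran in nearly the opposite order to Ugt2b38, with 247, 228, 91.9, 49.01, 328, 118 and 487 CPM, highest in library 7 and lowest in library 4. Gsta4 had 15.3, 13.9, 2.08, 1.51, 60.9, 10.98 and 187 CPM in cluster 3, so that library 7 lay above all others, library 5 came next and libraries 3 and 4 were lowest.

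Gstp1 had 41.4, 37.9, 76.3, 78.1, 15.8, 13.4 and 6.02 CPM in cluster 3, with libraries 3 and 4 highest. In T-like cells it had 92.6, 45.2, 86.6, 75.9, 19.2, 22.4 and 10.5 CPM, where library 1 was highest and libraries 5, 6 and 7 were again the 3 lowest. Ugt1a2 and Ugt1a6a reached 19.5 and 25.4 CPM in cluster 3 of library 7, against at most 2.28 and 5.02 CPM in any other library. Libraries 3 and 4 held the least Gsto1 (3.63 and 4.84 CPM, against 16.6 to 44.4 CPM elsewhere) and Mgst1 (9.86 and 8.47 CPM, against 23.03 to 52.99 CPM). No label separates the libraries, so these differences have no test. The part that the Xist and haemoglobin levels given above have in them was not tested.

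**Figure D3:**
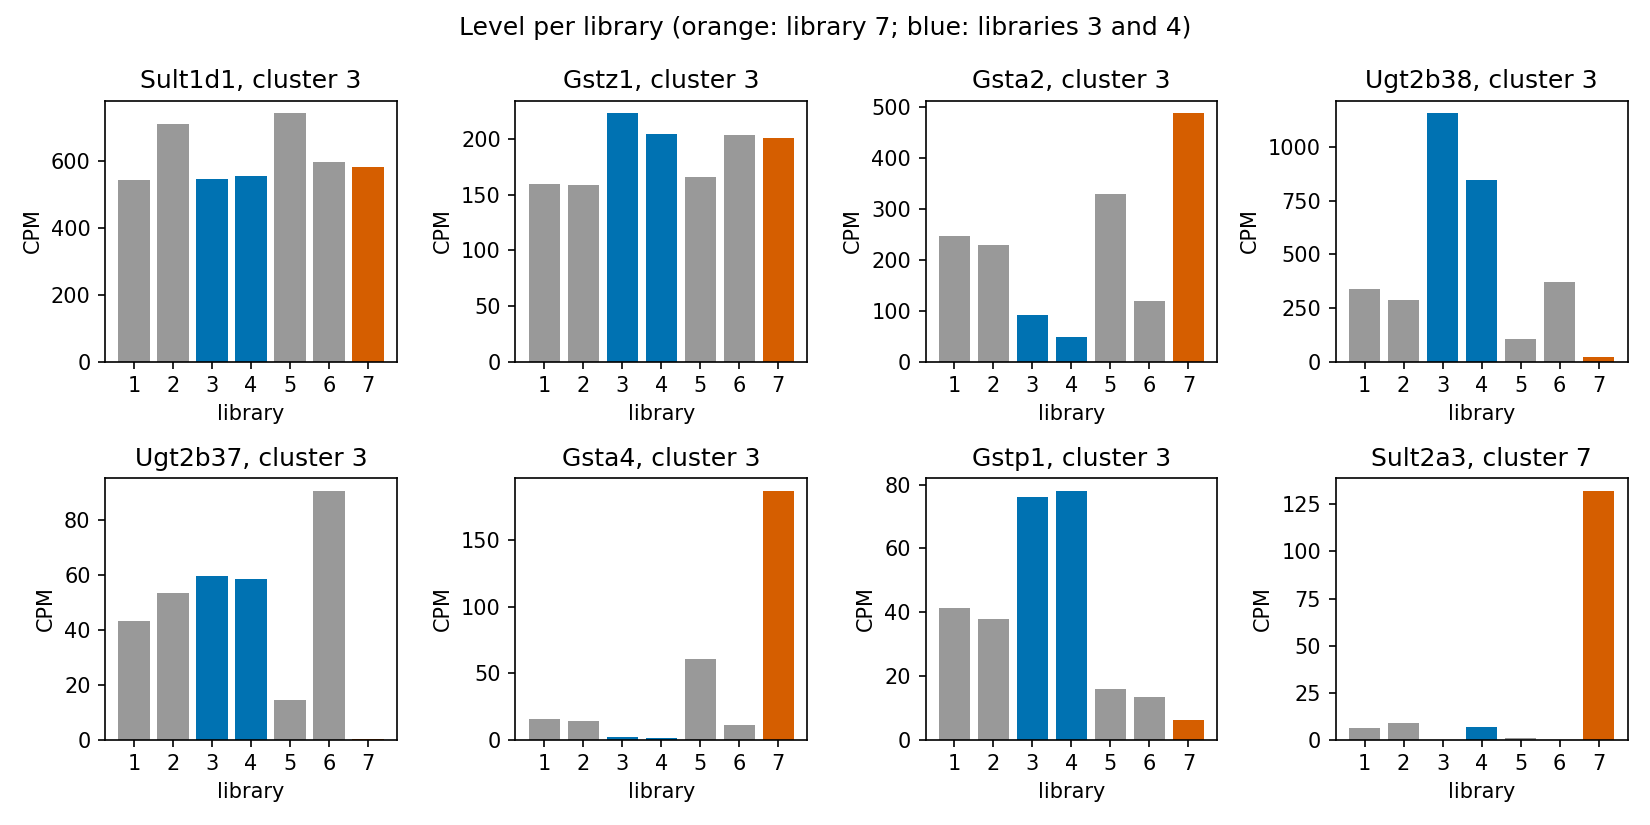
Level in CPM (vertical axis, scaled per panel) in each of libraries 1 to 7 (bars) for 7 members in cluster 3 and for Sult2a3 in cluster 7. Sult1d1 and Gstz1 are even, Ugt2b38 is highest in libraries 3 and 4 (blue), and Gsta2, Gsta4 and Sult2a3 are highest in library 7 (orange), at 487, 187 and 132 CPM.

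Loop of Henle-like cells (cluster 4) and distal convoluted tubule-like cells (cluster 5) differed in 5 of 23 members tested, where 12.8% of all genes differed. Mgst3 was the leading member in both, with 314, 405 and 448 CPM in the lowest, median and highest library of cluster 4 and 275, 382 and 468 CPM in cluster 5, and did not pass the test between them (log2 fold -0.19 ± 0.18). Of the 23 members tested, 2 were higher and 3 lower in cluster 4, where 6.01% and 6.75% of all genes were. Without library 1, 2 or 3, 1 member was higher. Sult1d1 had 181, 271 and 356 CPM in cluster 4 and 60.7, 81.97 and 162 CPM in cluster 5. Every loop-like library lay above every distal-like one (log2 fold 1.25 ± 0.27 (SE), edgeR adjusted p = 3.17e-04).

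Sult1a1 had 8.39, 12.5 and 18.8 CPM in cluster 4 and 19.8, 30.6 and 39.9 CPM in cluster 5, and Gstt3 34.9, 46.6 and 64.9 CPM in cluster 4 and 73.3, 88.5 and 96.4 CPM in cluster 5. The clusters did not overlap for either gene. Both were lower in loop-like cells (Sult1a1, log2 fold -1.40 ± 0.26 (SE), edgeR adjusted p = 1.92e-05, and Gstt3, log2 fold -1.06 ± 0.19 (SE), edgeR adjusted p = 6.77e-06). Gstm2 (log2 fold 0.71 ± 0.24 (SE), edgeR adjusted p = 0.0329) and Ugt2b38 (log2 fold -0.83 ± 0.27 (SE), edgeR adjusted p = 0.0274) passed narrowly. The Gstm2 call was lost without library 1, 2 or 3 (edgeR adjusted p = 0.151, 0.102 and 0.0812). That of Ugt2b38 was lost without library 2, 3, 4, 5 or 7 (edgeR adjusted p = 0.0779, 0.0806, 0.0775, 0.0565 and 0.0615).

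In the collecting duct, intercalated-like cells (cluster 7, acid-base transport) were compared with principal-like cells (cluster 6, water and sodium uptake), which had sums in libraries 1 to 6. Gstm2, Mgst1, Gstt1 and Gstt3 were lower and Sult1d1 and Gsto1 higher in intercalated-like cells. Of the 23 members tested, 2 had more and 4 less in intercalated-like cells at the threshold, where 12.7% and 12.3% of all genes did. The shares of the members were near those of all genes. The all-gene split was 1011 higher and 976 lower with TMM and 674 higher and 1448 lower with DESeq2's size factors (median log2 fold -0.21), and the members were then 2 higher and 6 lower.

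Gstm2 had 44.9, 62.7 and 94.3 CPM in the lowest, median and highest library of intercalated-like cells and 194, 761 and 860.3 CPM in principal-like cells, where libraries 5 and 6 (299 and 194 CPM) lay far below libraries 1 to 4. No intercalated-like library reached a principal-like one (log2 fold -2.80 ± 0.22 (SE), edgeR adjusted p = 1.01e-20). Mgst1 had 24.3, 115 and 141 CPM in intercalated-like and 178, 333 and 585 CPM in principal-like cells (log2 fold -1.63 ± 0.27 (SE), edgeR adjusted p = 2.34e-07). The theta class gene Gstt1 had 110.05, 149.996 and 182 CPM in intercalated-like and 251, 337 and 516 CPM in principal-like cells (log2 fold -0.96 ± 0.18 (SE), edgeR adjusted p = 3.86e-06). Its neighbour Gstt3 had 45.1, 54.6 and 61.2 CPM in intercalated-like and 115, 139 and 189 CPM in principal-like cells (log2 fold -1.23 ± 0.20 (SE), edgeR adjusted p = 3.82e-07). For these 3 too, the clusters did not overlap. Within principal-like cells libraries 3 and 4 held the most Gstm2 and Mgst1, while within intercalated-like cells they held the least Mgst1.

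Sult1d1 was the reverse, with 139, 188 and 257 CPM in intercalated-like and 29.4, 52.2 and 86.1 CPM in principal-like cells and no overlap (log2 fold 2.16 ± 0.35 (SE), edgeR adjusted p = 3.15e-07). Gsto1 had 22.3, 58.7 and 93.2 CPM in intercalated-like and 0, 15.6 and 35.8 CPM in principal-like cells, and was higher in 6 of 6 libraries although the ranges overlapped (log2 fold 1.49 ± 0.33 (SE), edgeR adjusted p = 1.80e-04). The unnamed cluster 8 carries the markers of both cell types, with a summed level of 8778 CPM for the intercalated list, against 11672 CPM in cluster 7, and of 5948 CPM for the principal list, against 13269 CPM in cluster 6 and 316 CPM in cluster 7. It held 249 ± 108 CPM of Gstm2, 181 ± 34.5 CPM of Gstt1, 148 ± 32.03 CPM of Gstt3, 179 ± 38.3 CPM of Mgst1 and 79.99 ± 32.8 CPM of Sult1d1 (SD, n = 4 libraries). Apart from Gstt3, these means lay between those of clusters 7 and 6, and the part that a mixture of the cell types has in them was not tested.

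**Figure D4:**
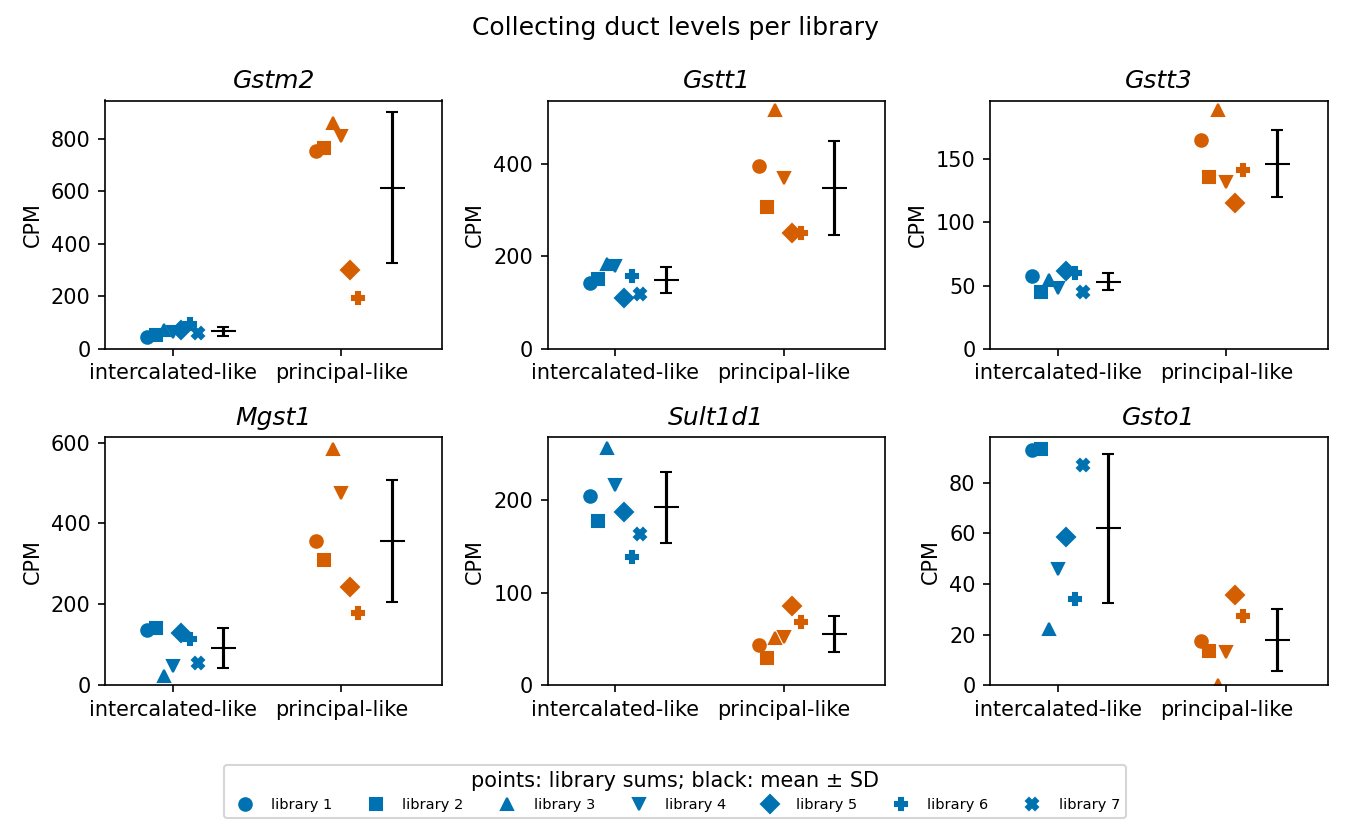
Level in CPM (vertical axis) of 6 members in intercalated-like cells (blue, 7 libraries) and principal-like cells (orange, 6 libraries), 1 point for each library with a symbol of its own, and the mean ± SD in black. Gstm2, Gstt1, Gstt3 and Mgst1 are lower and Sult1d1 higher in every intercalated-like library, such as 65.5 ± 16.01 CPM in intercalated-like and 614 ± 289 CPM in principal-like cells for Gstm2.

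Sult2a3, of the hydroxysteroid sulfotransferase family, was found mainly in intercalated-like cells, with 101 of its 119 UMIs in cluster 7, 12 in cluster 3 and 5 in cluster 8. It had 6.41, 8.74, 0, 6.72, 0.703, 0 and 132 CPM in cluster 7 of libraries 1 to 7, and library 7 stood far above the others. Cluster 7 was divided after its values were seen into 906 cells with more UMIs of type B markers (Slc26a4, Insrr and Slc4a9) than of type A markers (Slc4a1, Kit, Aqp6 and Dmrt2) (median 4763.0 UMIs in a cell) and 689 with the reverse (median 3630.0), and no test was made. In libraries 1 to 7 Sult2a3 had 10.2, 13.1, 0, 5.53, 0.959, 0 and 215 CPM in the type B cells and 0, 0, 0, 2.18, 0, 0 and 0 CPM in the type A cells. Gstm1 had 254, 189, 162, 166, 167, 202 and 229 CPM in the type B cells and 125, 85.6, 113, 78.5, 67.3, 146 and 109.8 CPM in the type A cells, with every type B library above every type A one. The other 134 cells, with equal marker UMIs (median 1517.5 UMIs in a cell), had 314 ± 313 CPM of Gstm1 (SD, n = 7).

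Outside the tubule, Gsta4 led in podocyte-like cells, with 181, 184, 320.02 and 141 CPM in libraries 2, 5, 6 and 7, all above the highest library of the next cluster, the distal-like cluster 5 (68.8, 94.9 and 112 CPM in the lowest, median and highest library). These values come from 6, 40, 21 and 7 cells. In library 7, proximal-like cells had more Gsta4 (187 CPM) than podocyte-like cells (141 CPM). Gstm1 led in cluster 1, with 1028, 459.8, 283, 273, 1505, 2515 and 1318 CPM in libraries 1 to 7, lowest in libraries 3 and 4 and highest in library 6. The next cluster was proximal, at 178 ± 28.3 CPM (SD, n = 7).

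Because cluster 1 mixes cell types, its cells were divided after the values were seen into 51 with more stromal (pericyte, smooth muscle or fibroblast) than endothelial marker UMIs (median 2989 UMIs in a cell) and 853 with the reverse (median 1568). No test was made. The other 97 cells, with equal marker UMIs (median 2642), had 2015 ± 866 CPM of Gstm1 (SD, n = 4 libraries). Gstm1 had 4100.4, 1815, 9454 and 12573 CPM in the stromal cells of libraries 1, 2, 5 and 6, which had at least 5 such cells, and 171, 149.7, 174, 253, 140.4, 181 and 125 CPM in the endothelial cells of libraries 1 to 7. Every stromal sum was above every endothelial one. Gsta4 and Mgst1 were also higher in the stromal cells, at 523 ± 403 CPM and 313 ± 183 CPM, against 17.04 ± 19.4 CPM and 44.9 ± 9.82 CPM in the endothelial cells (SD, n = 4 and 7), although Gsta4 was at 0 in library 2. Sult1a1 was on the endothelial side, with 8.87 ± 11.2 CPM in the stromal cells and 94.6 ± 30.9 CPM in the endothelial cells. Markers of urothelial cells, highest in cluster 1, were not used in this division.

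The myeloid clusters 10 to 12 were compared with the lymphoid clusters 13 to 15, and 2 of 23 members were higher and 1 lower, where 7.57% and 18.4% of all genes were. The share higher was near that of all genes, and 1 member was higher without library 3, 4, 5 or 6 and 3 without library 2. This comparison depended on the scaling. The all-gene split was 602 higher and 1460 lower with TMM (median log2 fold -0.23), and 946 higher and 798 lower with DESeq2's size factors (median 0.04), when 8 members were higher and 1 lower.

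The largest myeloid excess was that of Mgst1. It had 146, 199.98 and 309.7 CPM in the lowest, median and highest library of monocyte-like cells and 430.5, 0, 305, 501 and 417 CPM in the neutrophil-like cells of libraries 2, 4, 5, 6 and 7, against 0, 9.03 and 22.4 CPM in T-like, 0, 16.1 and 35.4 CPM in natural killer-like and 0, 10.3 and 64.2 CPM in B-like cells. The neutrophil-like values come from 13, 7, 18, 23 and 8 cells. Macrophage-like cells had 0, 27.3 and 85.9 CPM, and the mean of the 3 myeloid clusters was higher in 7 of 7 libraries (log2 fold 3.19 ± 0.39 (SE), edgeR adjusted p = 4.15e-11). Monocyte-like cells were also the leading cluster of Gsto1, with 60.5, 99.6 and 166 CPM. Gsto1 did not pass between the myeloid and lymphoid means (log2 fold 0.99 ± 0.58 (SE), edgeR adjusted p = 0.215).

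The other 2 calls were weak. Gstz1 (log2 fold 0.76 ± 0.29 (SE), edgeR adjusted p = 0.039) lost its call without any single one of libraries 1 to 6 (edgeR adjusted p = 0.0506 to 0.285). Mgst2, which in humans takes part in making leukotriene C4, had 4, 0 and 7 UMIs in clusters 10, 11 and 12 and 5, 61 and 8 in clusters 13, 14 and 15. With all libraries of cluster 11 at 0, its fitted fold (log2 fold -2.74 ± 0.83 (SE), edgeR adjusted p = 0.00953) depends on the prior count and gives no size. The highest mean of Mgst2 was nevertheless in the myeloid cluster 12, at 45.1 ± 59.8 CPM from its 7 UMIs (SD, n = 5), against 26.7 ± 21.6 CPM in T-like cells (n = 7). T-like cells held 4.90, 25.6 and 66.2 CPM of Mgst2.

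In droplet data free RNA of abundant cells gives UMIs in other cells, and 9 proximal markers were used to gauge it. In each library the level of a marker in another cluster was divided by its level in cluster 3, and the median over libraries was 7.44% to 13.4% for the markers in loop-like cells, 5.07% to 9.48% in principal-like cells and 4.53% to 6.86% in intercalated-like cells. In cluster 1 it was 8.97% to 23.99% and in macrophage-like cells 13.8% to 30.02%. The same measure was taken for the 11 members that led in cluster 3 or 9 at a mean of at least 40 CPM, over libraries with at least 10 CPM in cluster 3. A value within or below the range of the markers was not told apart from background. Sult1d1 was above the range in loop-like cells (38.9%) and intercalated-like cells (27.97%) and at its upper end in principal-like cells (9.47%). Gstt2 and Gstm5 were above it in clusters 4, 5, 6 and 7, with 31.6%, 23.8%, 30.5% and 22.95% for Gstt2 and 32.3%, 24.3%, 15.4% and 11.4% for Gstm5.

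Of the 11 members, 7, 8, 6 and 10 were above the range in clusters 4, 5, 6 and 7. Those above in all of these clusters were Gstm5, Gstt2, Gstz1 and Ugt2b34. Ugt3a2 was the one member within or below the range in each (7.74%, 11.2%, 7.45% and 3.11%). The part that free RNA has in these Ugt3a2 values was not tested. The range holds medians over libraries without their spread. With UMIs pooled over libraries, the highest marker reached 14.2%, 19.5%, 12.1% and 8.47% in clusters 4, 5, 6 and 7. The counts do not use these pooled values. The immune clusters had at most 1 of the 11 members above the range in each. It was Gstz1 in macrophage-like cells (42.9%), Sult1d1 in neutrophil-like cells (53.9%) and Ugt2b34 in T-like (39.99%) and natural killer-like cells (29.7%). It was none in monocyte-like and B-like cells. The Ugt2b34 shares rest on few UMIs, since it averaged 19.6 ± 17.7 CPM in cluster 3 (SD, n = 7). All 5 Ugt2 genes together had 193 UMIs in T-like and 45 in natural killer-like cells. The measure was not taken for Mgst1, Gsto1, Gstp1, Sult1a1 and Gsta4, whose leading clusters were others.

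**Figure D5:**
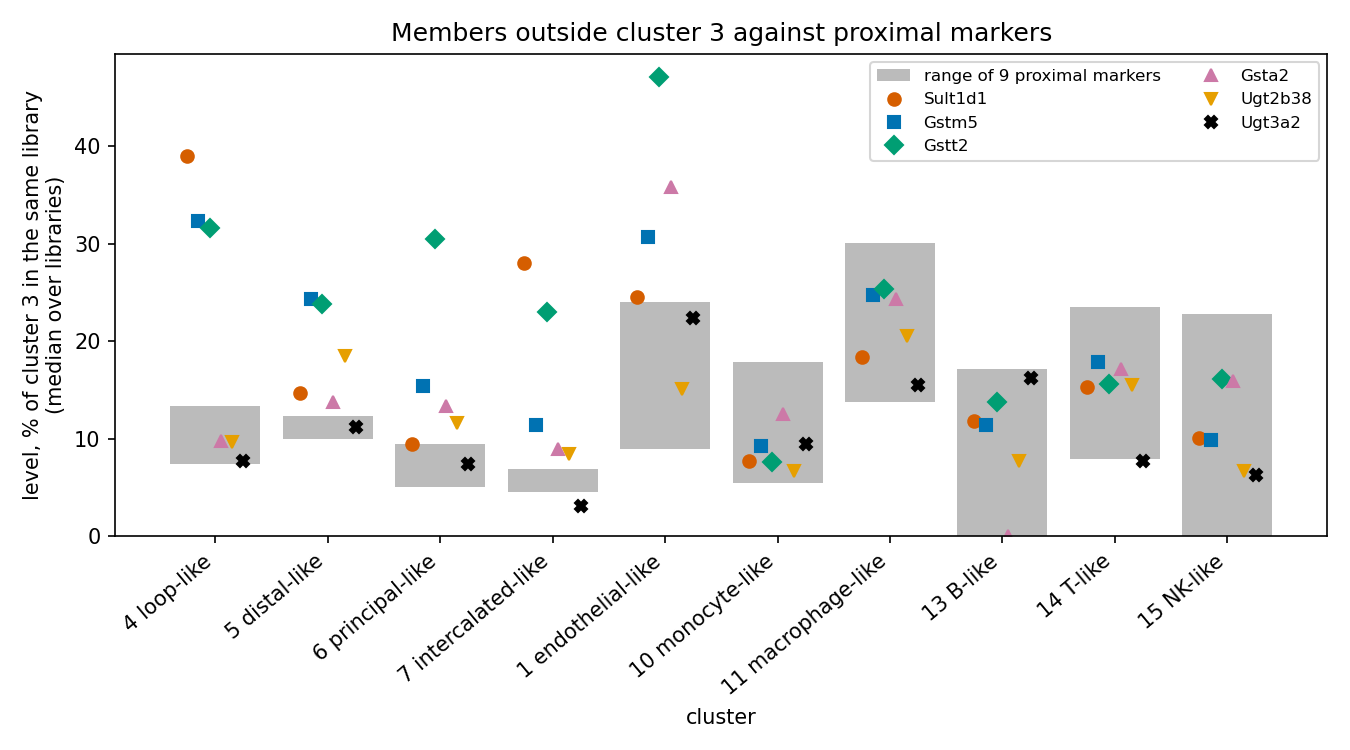
Level of 6 proximal members (symbols) in 10 other clusters, as a percentage of cluster 3 in the same library (vertical axis, median over libraries), over the range of 9 proximal markers (grey). Sult1d1 stands above the grey range in loop-like (38.9%) and intercalated-like cells (27.97%), Ugt3a2 at or below its upper edge in every cluster drawn, and no symbol lies above the grey in clusters 10, 11, 13, 14 and 15.

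Genes that supply and clear the conjugates were read from lists chosen for the pathway. Of 13 genes of glutathione supply and conjugate export, 8 were higher and 2 lower of 11 tested in cluster 3 than in clusters 4 to 7, with a median log2 fold of 1.98. The conjugate pump Abcc2 (3.67 ± 0.15), the brush border dipeptidase Dpep1 (3.42 ± 0.16) and glutathione synthetase Gss (2.68 ± 0.13) were higher, and the basolateral pump Abcc1 (-5.85 ± 0.23) lower. Of 9 genes of UDP-glucuronate and PAPS supply, 5 were higher and 2 lower of 9 tested. Papss2 (3.28 ± 0.14) was higher and Papss1 (-1.5 ± 0.15) lower, so the 2 enzymes that make PAPS differed in direction, and the UDP-glucuronate carrier Slc35d1 (2.08 ± 0.15) was higher. The edgeR adjusted p was at most 1.00e-15 for these 7 genes, and 29.1% and 31.4% of all genes were called higher and lower.

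Of 10 regulators, 1 was higher and 2 lower of 5 tested. Hnf4a (3.66 ± 0.16) was higher in cluster 3, and Nfe2l2, which drives antioxidant response elements (-1.57 ± 0.15), and the dioxin receptor gene Ahr (-1.91 ± 0.23) were lower, with an edgeR adjusted p of at most 3.60e-12. Of 5 deconjugation genes 4 were in the matrix and 1 was higher and 0 lower of 3 tested, the lysosomal sulfatase Arsb (1.5 ± 0.14). In late against early proximal cells, 5 were higher and 1 lower of 9 tested for glutathione supply and export, where 10.2% and 8.55% of all genes were, with Ggct (0.99 ± 0.14), Ggt1 (0.87 ± 0.09) and Gclm (0.79 ± 0.10) among the higher and Dpep1 (-2.20 ± 0.18) the lower (edgeR adjusted p of at most 5.69e-07). For UDP-glucuronate and PAPS supply, 3 were higher and 1 lower of 7 tested, with Papss1 (0.81 ± 0.17) and Papss2 (0.48 ± 0.09) both higher and Bpnt1 (-0.45 ± 0.11) lower (edgeR adjusted p of at most 0.00116). Of the regulators, 1 was higher and 1 lower of 6 tested, the NRF2 target Nqo1 (0.88 ± 0.24) and Ppara (-0.58 ± 0.20), and of deconjugation genes 0 were higher and 1 lower of 2 tested, which was Arsb (-0.97 ± 0.18).

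In loop-like against distal-like cells, 2 were higher and 1 lower of 11 tested for glutathione supply and export, where 6.01% and 6.75% of all genes were. The higher were Ggt1 (1.02 ± 0.22) and Abcc1 (0.89 ± 0.21) and the lower one Gclc (-1.53 ± 0.20). Papss1 (-1.68 ± 0.19) was lower among 9 supply genes tested, and Hnf4a (-0.80 ± 0.27) among 5 regulators. In intercalated-like against principal-like cells, 3 were higher and 0 lower of 11 tested, where 12.7% and 12.3% of all genes were. These were the aminopeptidase Anpep (4.17 ± 0.45), Abcc1 (1.09 ± 0.25) and Gclc (0.71 ± 0.20). For UDP-glucuronate and PAPS supply 0 were higher and 3 lower of 9 tested, which were Impad1 (-0.84 ± 0.21), Papss1 (-0.73 ± 0.22) and Slc35b2 (-0.71 ± 0.27). In myeloid against lymphoid clusters, where 7.57% and 18.4% of all genes were higher and lower, glutathione reductase Gsr (2.29 ± 0.24) of 11 and Nfe2l2 (1.59 ± 0.27) of 5 were higher. The other lists held 0 called genes in these 3 comparisons, and the edgeR adjusted p of the genes named was at most 0.0395.

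The other 25 members stayed under a mean of 50 CPM in every cluster with 3 or more library sums, and 9 of the 46 had fewer than 100 UMIs in all 43745 cells. All 8 Ugt1 genes were among the 25, and their sum reached 19.6 ± 17.9 CPM in cluster 3 (SD, n = 7), with 2.09, 17.5 and 55.1 CPM in the lowest, median and highest library. The Ugt1a genes share their last exons, so between 43.5% and 100% of the windows of 60 bases near the 3′ end of each occur in another Ugt1a gene. A 3′ end count can hardly assign molecules among them, and the levels of single Ugt1a genes, Ugt1a2 and Ugt1a6a included, are uncertain. The same holds for Gsta1 and Gsta2 (87.5% and 53.3% shared with each other or with unnamed neighbours), for Gstp1 and Gstp2 (75.9% and 53.2%), and in part for Gstt3 (25.9%) and Gstm1 (19.9%). All other members shared at most 10% of their windows. Among the low members Ugt2b34 peaked in cluster 9 (43.2 ± 16.1 CPM, n = 4), Sult5a1 in clusters 8 and 7 (10.8 and 9.29 CPM) and Sult2b1, which sulfates cholesterol, in principal-like cells (8.78 ± 7.32 CPM, n = 6).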

How the data were processed

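Droplet libraries of transcript 3′ ends from 7 mouse kidneys were deposited by the authors as 1 table of raw UMI counts per gene and cell, with a cluster number for each cell. Cell Ranger 1.3, STAR and the builds mm10 and GRCm38.p4 are named in the submitters' processing notes. Filters on cells, the clustering method and any removal of doublets are not given in the sources used here, and no cell was removed and no doublet caller run. All columns were read, and 0 were left unmapped. Sum sizes and depths stand with the results.

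The UMIs of all cells with the same library and cluster were added up, with a minimum of 5 cells for a sum, and are given as CPM. edgeR 4.0.16 in R 4.3.3 was fitted to the counts (TMM, filterByExpr, quasi-likelihood F test, Benjamini-Hochberg over all genes, threshold 0.05), with the library as a block, because the clusters of a library come from the same kidney. Late and early proximal cells were fitted apart from the clusters. The fitting steps were tested on simulated data. SE is the log2 fold divided by the square root of F. P-values weigh the fold against the spread of library sums that is left after the block. The libraries could not be linked to the labelled mice, so wild-type and reporter mice were not compared.

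Alternatives were DESeq2 1.42.0 (size factors and Wald test), no low-count filter, at least 20 cells in a sum, every cell thinned to 1000 UMIs, without the 2494 cells that had fewer, no block, the compared clusters alone, another cut for late and early cells and leaving out each library. Leaving out libraries 3 and 4 together was chosen after seeing the data. The members, marker lists and pathway lists were chosen with earlier results of these data known. Members at a mean of 50 CPM or more in a cluster with at least 3 sums were given in full, and others by counts and ranges unless called. Shared 3′ ends were windows of 60 bases in the last 500 bases of coding transcripts of GENCODE vM21. Python 3.11.15, numpy 2.4.6, scipy 1.17.1, pandas 2.3.3 and matplotlib 3.10.9 were used.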

Additional observations from a re-analysis of the deposited data

Results flagged for a closer look

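In 7 of 41 sets of 4 to 7 library values, 1 library lay past Dixon's 95% critical value. This value limits the distance to the nearest neighbour, relative to the whole range. The sets included Sult2a3 in cluster 7 and Ugt1a2, Ugt1a6a, Ugt2b34 and Ugt2b37 in cluster 3. These members were below the level for being given in full. Because the sets follow no single rule, the number past the value cannot be compared with the share that chance alone would mark. In library 7 the sets past the value were Gsta4 in cluster 3 (187 CPM, next 60.9 CPM) and Sult2a3 in intercalated-like cells (132 CPM, next 8.74 CPM). Ugt1a2 and Ugt1a6a in cluster 3 were also past it in library 7 (19.5 and 25.4 CPM, next 2.28 and 5.02 CPM). Library 7 is the one with Xist transcripts and without transcripts of the Y-linked genes measured, and the part this has in these values was not tested.

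In library 6, Gstk1 in cluster 3 had 75.1 CPM, against 50.9 CPM in the next library. Gstt2 in cluster 9 of library 6 had 447 CPM, against 184 CPM in the next of 4. This Gstt2 value came from a sum of 6 cells. Sult1a1 in the endothelial-like cluster 1 had 147 CPM in library 3, against 85.7 CPM in the next.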

How the results depend on the processing

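Counted over each called member and each alternative that gave it a value, the call was kept 599 times and lost 48 times, and 0 changed direction. The number of members higher in cluster 3 than in clusters 4 to 7 was 13, and 28 without the low-count filter, where more genes are tested. In intercalated-like against principal-like cells, 2 were higher, but 5 without the filter or with at least 20 cells in a sum, and 1 with thinned cells. In late against early proximal cells, 8 were higher and 1 lower. The number higher was 5 with at least 2 UMIs of the class markers and 5 to 8 with a library left out, and the number lower was 5 without the filter, 3 with thinned cells or without libraries 3 and 4, 2 with at least 2 UMIs and 1 to 2 with a library left out. In loop-like against distal-like cells, 2 were higher and 3 lower. The number higher was 1 with DESeq2's Wald test or without libraries 3 and 4, 4 with the compared clusters alone and 1 to 2 with a library left out, and the number lower was 1 with thinned cells and 6 with the compared clusters alone. In myeloid against lymphoid clusters, 2 were higher and 1 lower. The number higher was 8 with DESeq2's size factors, 11 with its Wald test, 1 without the filter, with at least 20 cells, with thinned cells or without libraries 3 and 4, and 1 to 3 with a library left out, and the number lower was 0 with the Wald test, thinned cells or the compared clusters alone. Without the replicate block for the library, the numbers higher were 4 for late cells, 0 for loop-like cells and 1 for myeloid clusters, and 0 were lower in late cells. Gsta4 (cluster 3), Gsta2 and Ugt3a2 (late cells) and Sult1d1 (loop-like cells) lost their call in no other alternative. Over all genes tested, late cells then had 128 higher and 145 lower genes, in place of 534 and 446. Where no reason is given, the cause was not tested. Intervals over 7 libraries and sums of few cells limit the precision, most for podocyte-like and neutrophil-like cells, cluster 9 and members under 100 UMIs.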

Other observations

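The unnamed cluster 9, which carries proximal genes beside cycling markers, had sums in 4 libraries. These sums held 9, 28, 552 and 6 cells in libraries 1, 2, 5 and 6. Cluster 9 held the highest mean of 3 members with at least 50 CPM. Gstm5 had 334, 458 and 727 CPM in its lowest, median and highest library. Sult1c2 had 55.9, 84.7 and 115 CPM, and Gstt2 had 153, 177 and 447 CPM. The highest values of Gstm5 and Gstt2 came from the 6 cells of library 6. The median of Gstt2 was below its median of 205 CPM in cluster 3. All 3 members overlapped cluster 3, and no test was made. Sult1d1 averaged 608 ± 145 CPM in cluster 9 (n = 4) and 612 ± 82.2 CPM in cluster 3 (SD, n = 7). Ugt2b38 averaged 142 ± 48.3 CPM in cluster 9 and 448 ± 410.0 CPM in cluster 3, where its spread over libraries was wide. Gstk1 averaged 17.9 ± 22.3 CPM in cluster 9 and 45.2 ± 14.7 CPM in cluster 3.

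Gstp1 had its highest mean in macrophage-like cells, at 60.2 ± 72.4 CPM (n = 7), but with 0, 27.3 and 176 CPM in the lowest, median and highest library it could not be set apart from B-like cells, at 53.2 ± 38.2 CPM (n = 7). Gstt3 was as high in the unnamed cluster 8, at 148 ± 32.0 CPM (n = 4), as in principal-like cells, at 146 ± 26.5 CPM (n = 6), within the spread of the libraries.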
